A study of Mus musculus with 2 samples.

Results

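Genes that pattern tissues, drive growth or answer stimuli early formed the subject here: Hoxa3, Meis2, Arid5b, Klf6, Trib1, Myc, Pvt1, Fosl2 and Atf6b. These 9 loci were chosen by the fold and position of their Foxp2 peaks in the same data, so their counts and folds describe them and were not tested. A peak was taken for a gene when its summit lay in the gene or within 150 kb of it, which gave 21 of the 944 deposited peaks. The peaks came from 1 chromatin immunoprecipitation (ChIP) library of Foxp2, called against 1 input library (DNA kept before the pull-down). Both were made from C1.1 cells, a tubular epithelial line from mouse kidney kept in 10% serum, after stable selection for a CRISPR activation plasmid that raises transcription of the cells' own Foxp2 gene. Chromatin was fixed with 1% formaldehyde. Both libraries carried the activated gene, and cells without activation were not analysed here. There was no replicate, and RNA was not measured, so the labelled cell type was not checked on markers and no peak was set against the expression of its gene.

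Foxp2 is a forkhead transcription factor, best known for its part in the development of the brain circuits of vocal learning, and it acts mostly as a repressor. Forkhead proteins hold DNA through a winged-helix domain that reads a short AT-rich word, written TGTTTAC on one strand and GTAAACA on the other. Hox genes give cells their position along the body axis, and Meis proteins are cofactors that bind DNA together with Hox proteins. Immediate early genes, among them some but not all of the AP-1 and Krüppel-like families, are switched on within minutes of a growth signal or injury. Kidney tubule cells use them in the response to damage.

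Fold here means the authors' ratio, at the summit, of reads piled up in the ChIP library to the input background. The range in parentheses after each fold is the exact 95% Poisson interval of its pileup. It covers counting error only, and with 1 library the variation between cultures is unknown.

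Bases under a peak could be read at Hoxa3 only. Its strongest peak (chr6:52176963-52177354, mm10) covered the start of 5730596B20Rik, a noncoding RNA gene that lies inside Hoxa3, and the RefSeq promoter window of that start (GRCm38.p6) held 61.7% of the peak with its summit. The shared 242 bases are shown from the plus strand because they contain the summit, at position 133 from the left, and capitals mark the forkhead words.

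Hoxa3 peak, chr6:52176963-52177204, plus strand: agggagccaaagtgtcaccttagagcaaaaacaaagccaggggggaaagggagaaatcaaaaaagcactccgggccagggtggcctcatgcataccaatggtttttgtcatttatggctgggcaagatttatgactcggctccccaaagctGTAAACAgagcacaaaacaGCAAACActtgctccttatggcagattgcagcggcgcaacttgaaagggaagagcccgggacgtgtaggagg

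These bases held 2 forkhead words, both on the strand opposite to the one printed. The first, GTAAACA (which reads TGTTTAC on the other strand), began 19 bp from the summit, and the second, GCAAACA (which reads TGTTTGC there), began 38 bp from it. The stretch ends 50 bases into 5730596B20Rik, and its summit lay 60 bp before the start of that gene.

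The word TGTTTAC was common where a summit fell in a promoter window. Promoter windows were 300 bases long, from 250 bases before a start to 50 after, and 32851 were searched on both strands for the forkhead words TGTTTAC, then TGTTTGC, then TATTTAC, then TATTTGC, then TATTTAT and last TGTTTAT, which can overlap one another. Any of the 6 words was found in 21.1% of all windows and in 20 of the 44 windows that held a summit (45.5%), 1 window per peak. For TGTTTAC alone the shares were 3.65% of all windows and 16 of 44 (36.4%). In all 16 the centre of the nearest match lay 1 to 43 bp from the summit, with a median of 16 bp. Measured to their centres, the words at Hoxa3 lay 22 and 41 bp from the summit. Apart from TGTTTAC, no forkhead word had a larger share in the 44 windows than in all windows. TGTTTGC, the second word at Hoxa3, was found in 2 of the 44 (4.55%), against 5.07% of all windows. The Hoxa3 peak was the only one of the 21 whose summit lay in such a window, so nothing is known here of the words under the other 20.

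**Figure D1:**
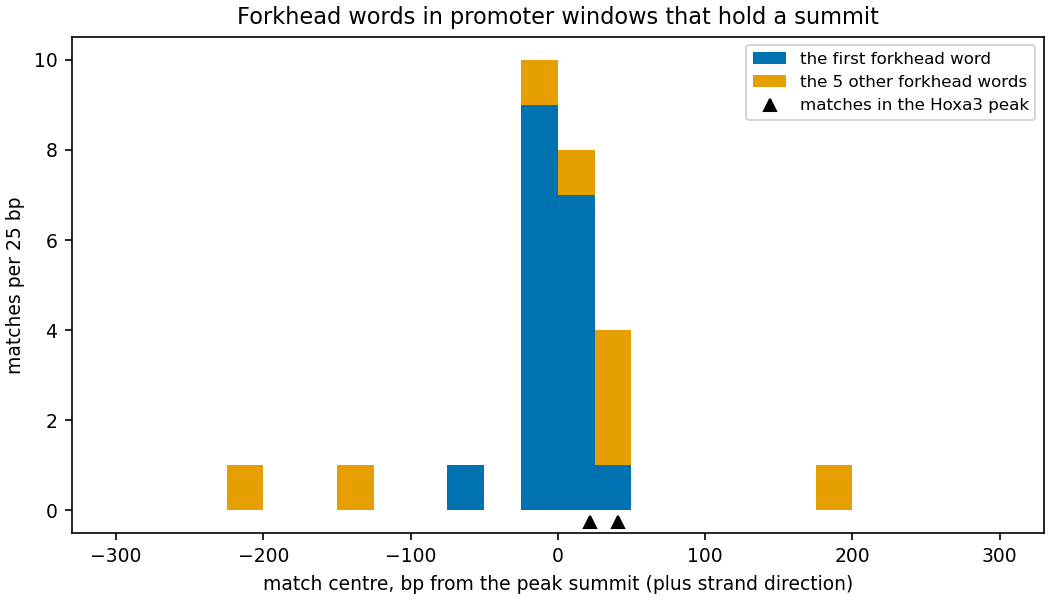
Distance in bp of the centre of each forkhead match from the peak summit (x axis) and the number of matches per 25 bp (y axis), in the 44 promoter windows that hold a summit. Blue bars are matches of the word found in 16 windows and orange bars those of the 5 other words. Triangles mark the 2 matches in the Hoxa3 peak, and in each of the 16 windows the nearest blue match lies 1 to 43 bp from the summit.

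Of the 9 genes, 6 had a promoter window in the RefSeq table, which also gives their strand: Hoxa3, Meis2, Arid5b, Klf6, Fosl2 and Atf6b. A forkhead word was found in 1 of these 6 windows, that of Atf6b, 235 bases before its start (TGTTTGC, found in 5.07% of all windows). No summit fell in any of the 6. The window of G630016G05Rik, a noncoding RNA gene that starts inside Meis2, lay beside the strongest Meis2 peak and held 1 word, GTAAATA (which reads TATTTAC on the other strand, found in 3.04% of all windows), 326 bp from the summit and outside the peak. The Atf6b word lay 8371 bp from the nearest summit. The 250 bases before the starts of G630016G05Rik and Atf6b are printed with forkhead words in capitals, and neither stretch holds any base of the Meis2 or Atf6b peaks.

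G630016G05Rik promoter, chr2:116066975-116067224, plus strand: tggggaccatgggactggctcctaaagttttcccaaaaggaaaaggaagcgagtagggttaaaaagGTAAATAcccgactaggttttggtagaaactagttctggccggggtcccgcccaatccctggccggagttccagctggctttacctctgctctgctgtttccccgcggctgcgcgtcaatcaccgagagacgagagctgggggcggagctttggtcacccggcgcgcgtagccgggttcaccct

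Atf6b promoter, chr17:34646896-34647145, plus strand: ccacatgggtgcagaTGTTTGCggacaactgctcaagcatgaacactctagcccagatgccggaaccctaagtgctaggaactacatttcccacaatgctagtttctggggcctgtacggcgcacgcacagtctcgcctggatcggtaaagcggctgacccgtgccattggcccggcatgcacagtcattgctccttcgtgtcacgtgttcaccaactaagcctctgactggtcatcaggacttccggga

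Words of other factors were searched in the same windows. The E-box CACGTG, the word bound by Myc with its partner Max, was found once each in the windows of Klf6 and Atf6b and in 7.15% of all windows. The Meis word TGACAG was found in that of Hoxa3 (19.2% of all windows). The GC box GGGCGG was found in those of Klf6 and Fosl2 (35.7% of all windows), and CCAAT in those of Meis2, Klf6 and Atf6b, with 4 matches at Klf6 (37.4% of all windows). In the G630016G05Rik window a GC box and a CCAAT word overlapped. The AP-1 word TGANTCA (7.81% of all windows), the cyclic AMP response word TGACGTCA (1.79%) and the TEAD word GGAATG (14.7%) had no match in these windows. Over the 44 windows that held a summit, TGANTCA was found in 13.6%, TGACGTCA in 6.82%, the GC box in 47.7% and CCAAT in 38.6%. Those shares were above the shares of all windows. The E-box (6.82%), the Meis word (18.2%) and the TEAD word (11.4%) were below theirs.

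Peaks at the 9 loci ran from rank 7 to rank 890 of the 944 by fold. Their 21 folds had a median of 6.82 and ran from 3.49 to 18.1, against a median of 5.13 over all 944 peaks (2.84 to 38.8). Folds of 10 or more were held by 9 of the 21, and by 9.43% of all peaks, but the loci were picked partly for such folds. Of these strong peaks, Myc and Pvt1 shared theirs, and Fosl2 had none in the gene or within 150 kb. The strong peak of Klf6 lay 148068 bp from the gene and that of Myc 128703 bp. The share of all protein-coding genes with so strong a peak in their window is not given here. Among the 21, no fold lay between 7.08 and 10.5. Over all 944 peaks these folds ranked 235 and 70, so other peaks filled that range.

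By position, 9 of the 21 summits lay in a member gene over 1 kb from its ends, 3 within 1 kb of a gene boundary and 9 outside, up to 150 kb away. A summit inside the gene was found in 5 of the 9 (Hoxa3, Meis2, Arid5b, Pvt1 and Fosl2), against 1.63% of 21631 protein-coding genes and 0.969% of 12697 noncoding RNA genes of the lncRNA class. A summit within 1 kb of a boundary was found at Meis2, Trib1 and Atf6b, against 0.569% of protein-coding genes. All 9 had a summit in the gene or within 150 kb by choice, as did 13.8% of protein-coding genes. For 15 of the 21 peaks no other gene of any kind was nearer than the member, and for 17 no other protein-coding gene was. These counts include the 10 summits inside a member, to which no gene can be nearer, even where another gene also holds the summit. They therefore do not tie the peaks to the members, and no such share over all peaks is given here. The exon, intron and UTR classes of the peaks were not analysed here.

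**Figure D2:**
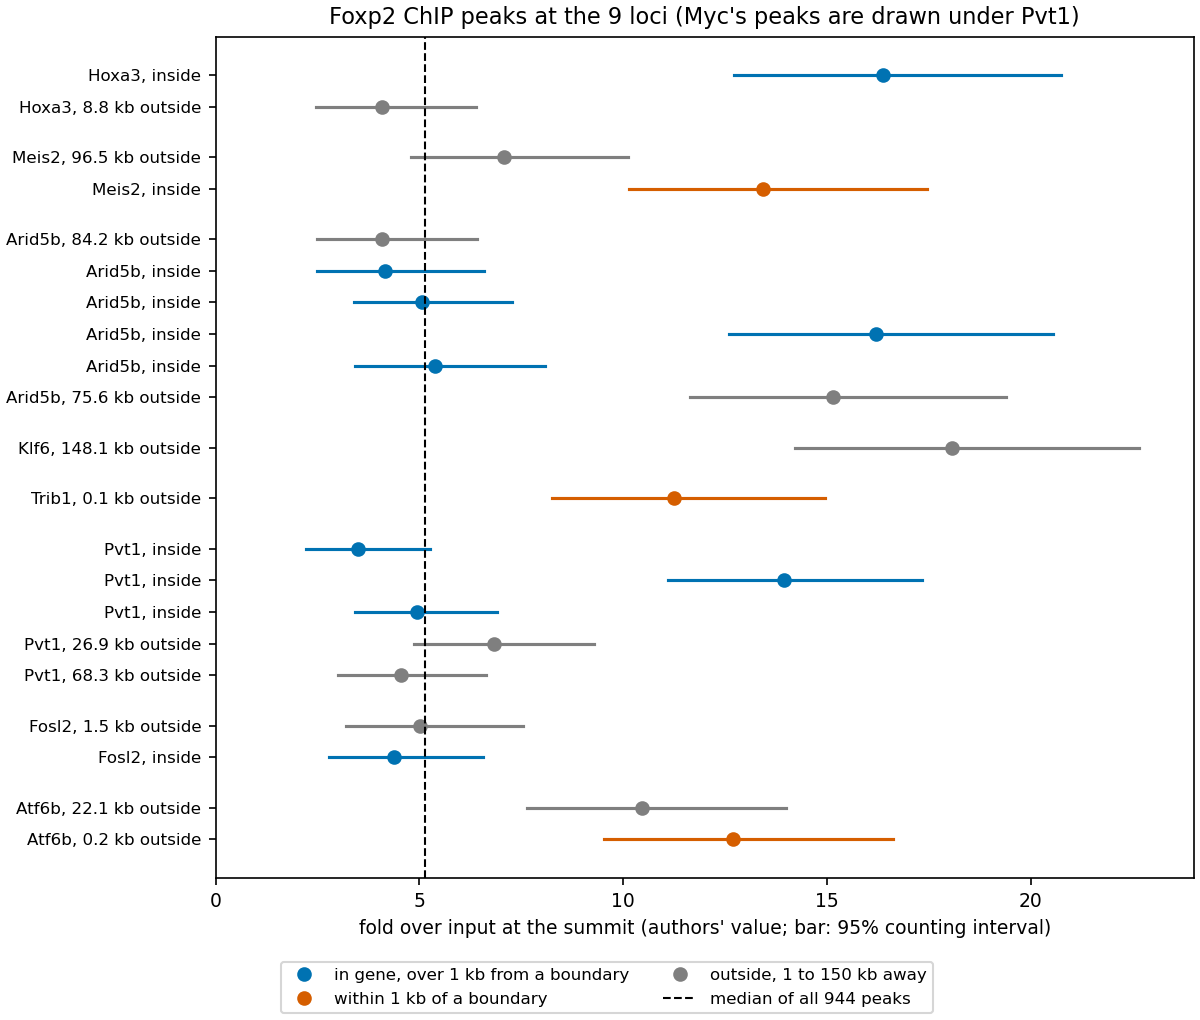
Authors' fold over input (x axis) of each of the 21 peaks, 1 row per peak, grouped by gene. Points are folds, bars the 95% counting intervals, colours the position class, and the dashed line the median of all 944 peaks (5.13). The 3 boundary peaks, in orange, lie between 11.2 and 13.4.

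**Figure D3:**
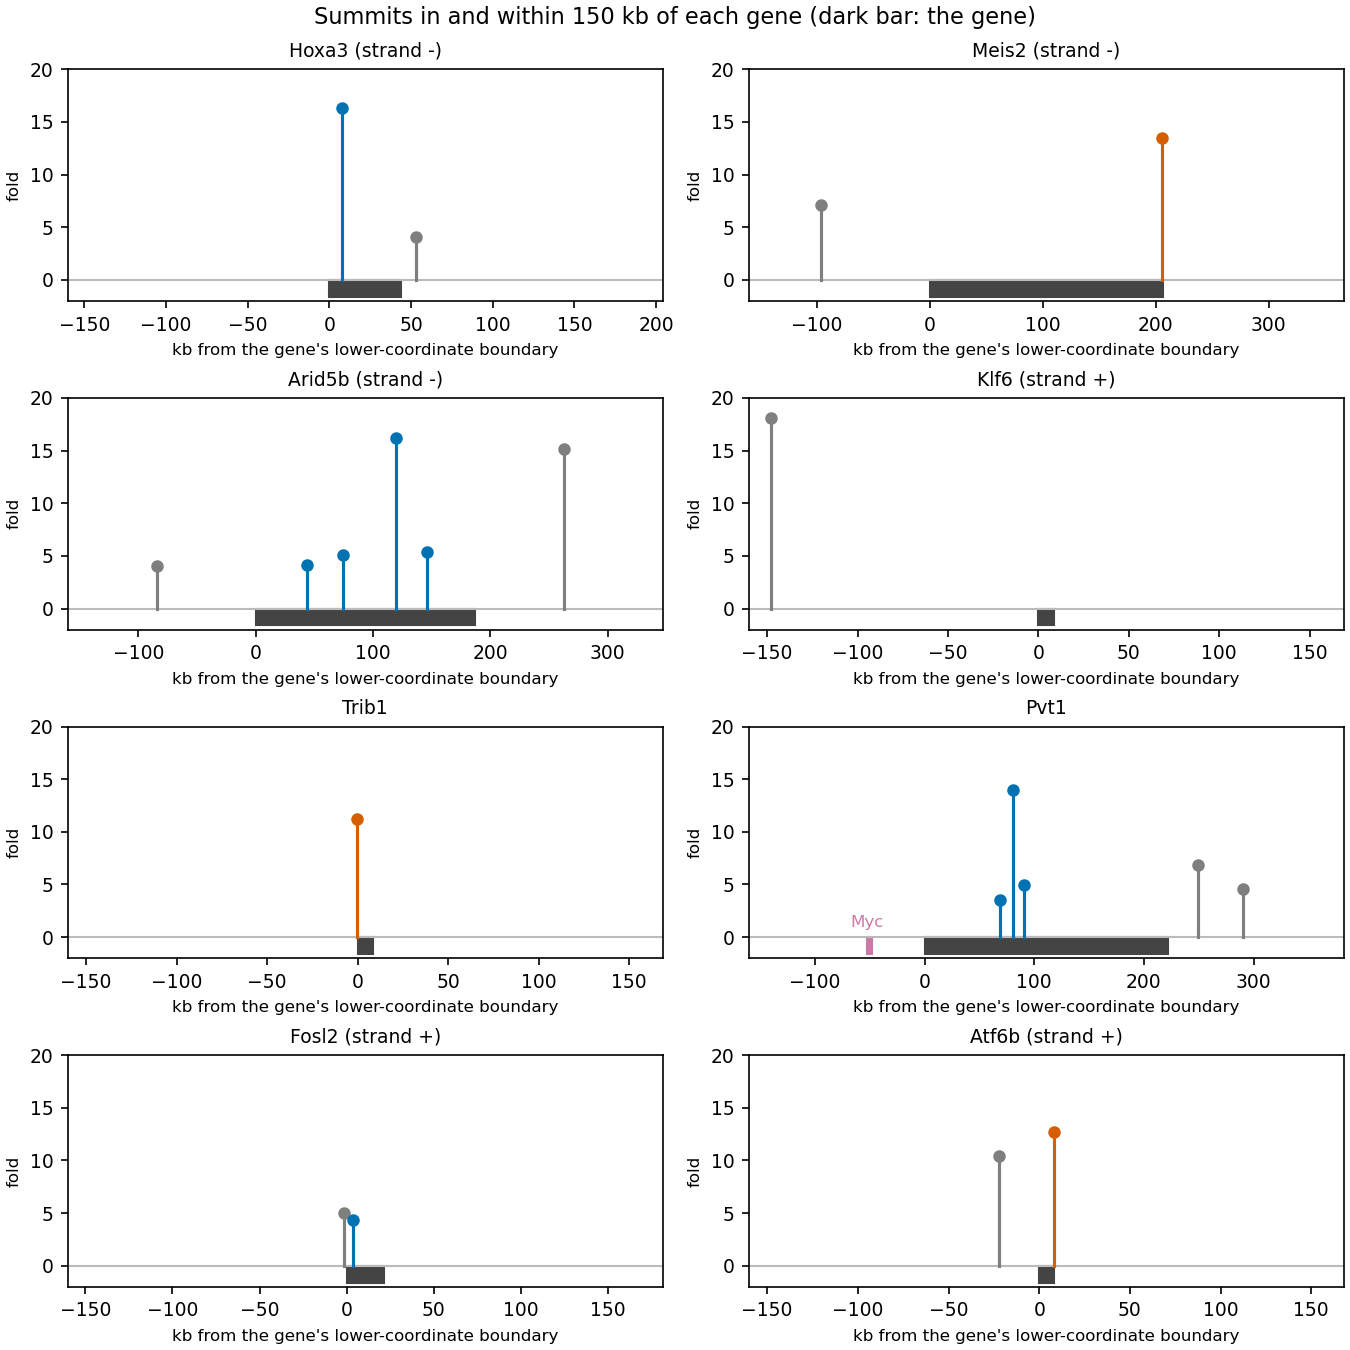
Summits in and within 150 kb of each gene, in kb from the gene's lower-coordinate boundary (x axis), with the authors' fold as height (y axis). The dark bar is the gene, blue summits lie in the gene, orange ones within 1 kb of a boundary and grey ones farther out. Arid5b holds 4 summits and Pvt1 3, while the single Klf6 summit lies at the edge of its window.

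Hoxa3, a patterning gene of the pharyngeal arches and their glands, held 1 strong peak within its cluster. The gene runs over 44.0 kb of the minus strand (chr6:52169059-52213067). The peak shown above had a fold of 16.4 (12.7 to 20.8) from a pileup of 66 reads, rank 9 of 944. Its summit lay inside Hoxa3, 8036 bp from the far end and 35972 bp downstream of the start. It also lay in LOC115490409, another noncoding RNA gene, and 12264 bp from Hoxa2, the nearest other coding gene. A weaker peak (chr6:52221813-52222097) had a fold of 4.08 (2.47 to 6.40, 17 reads) and lay 8794 bp upstream of the start of Hoxa3. It was nearer to Hoxa9, a gene of posterior patterning, which ends 1236 bp away, and to Hoxa7, which starts 3288 bp away. The intervals of the 2 peaks did not overlap. Both lay within 150 kb of all 12 coding genes of the cluster and its flank, so proximity alone does not tie them to Hoxa3.

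Meis2, which encodes a homeodomain cofactor of Hox proteins, had a strong peak at its upstream end. The gene spans 206 kb of the minus strand (chr2:115861264-116067537). The peak (chr2:116066509-116066859) had a fold of 13.4 (10.2 to 17.5, 54 reads). Its summit lay inside the gene, 822 bp from the upper boundary, and 2096 bp before the start that the promoter table gives. G630016G05Rik starts 510 bp away on the opposite strand. Meis2 was the only coding gene within 150 kb of this peak, and 34.1% of all peaks had at most 1 that near. A second peak (chr2:115764578-115764855) had a fold of 7.08 (4.79 to 10.1, 28 reads) and lay 96489 bp past the end of Meis2, inside the coding gene BC052040. Both Meis2 peaks stood at the lowest input background in the data, a floor value shared by 43.2% of all peaks. Their intervals just failed to overlap.

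Arid5b, a DNA-binding partner of a histone demethylase with roles in fat and cartilage cells and in organ growth, had the most peaks of the 9. The gene covers 187 kb of the minus strand (chr10:68092523-68279355) and held 4 summits spread over 102 kb, with 2 more outside. From the downstream end of the gene inwards, the first (chr10:68136604-68136795) had a fold of 4.15 (2.48 to 6.59, 16 reads). The next (chr10:68166446-68166961) had 5.05 (3.39 to 7.27, 27 reads). The strongest (chr10:68212290-68212635) reached 16.2 (12.6 to 20.6, 66 reads), rank 10 of 944, at 66177 bp downstream of the start. The last (chr10:68238516-68238815), 40166 bp downstream of the start, had 5.37 (3.42 to 8.08, 21 reads). The interval of the strongest lay above those of the other 3, which overlapped one another. The strongest and the one with 5.05 also lay in Gm51770, a noncoding RNA gene within Arid5b.

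Both peaks outside Arid5b lay far from it. That on the upstream side (chr10:68354796-68355171) had a fold of 15.1 (11.6 to 19.4, 61 reads) and lay 75624 bp from the gene. The coding gene Cabcoco1 was almost as near, at 75977 bp, and 3 noncoding genes were nearer, the closest being Gm32748 at 14745 bp. The one past the end (chr10:68008297-68008499) had 4.08 (2.47 to 6.40, 17 reads) and lay inside the coding gene Rtkn2, 84174 bp from Arid5b. Among all protein-coding genes, 9 held 3 or more summits and 4 held 4 or more, namely Arid5b, Crybg1, Glis3 and Rad51b. Long genes held summits more often: 123 of 1459 coding genes of at least 150 kb (8.43%) held any, and 29 held 2 or more.

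Klf6, a Krüppel-like zinc finger gene induced early after injury, had the largest fold of the 9 loci and the most distant summit. The gene is short, at 8.91 kb (chr13:5861489-5870393, plus strand), and its peak (chr13:5712907-5713591) had a fold of 18.1 (14.2 to 22.7, 73 reads), rank 7 of 944. The peak was also the widest of the 21, at 685 bp. It lay 148068 bp upstream of the start of Klf6, inside the noncoding RNA gene Gm35330. Klf6 was the nearest coding gene and the only one within 150 kb, with the next, Pitrm1, at 834701 bp. Of all 944 peaks, 322 (34.1%) had at most 1 coding gene within 150 kb, as did 9 of the 21. The Klf6 summit was the last one inside the 150 kb limit, and the first outside it, at 241 kb from Pvt1, had a fold of 3.78.

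Trib1, which encodes a pseudokinase that guides a ubiquitin ligase to the factor C/EBPα, had 1 peak, at its boundary. The peak (chr15:59648462-59648672) had a fold of 11.2 (8.26 to 14.95, 45 reads), and its summit lay 74 bp outside the lower boundary of the 8.45 kb gene (chr15:59648654-59657099). The peak itself reached 19 bp into the gene. The nearest other coding gene, Nsmce2, lay 46891 bp away. Of the 21 summits, this one was the nearest to a boundary of any of the 9 genes.

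Myc, a growth-promoting transcription factor, and its neighbour Pvt1, a long noncoding RNA gene, shared 3 peaks. Myc itself (chr15:61985341-61990361) had no summit inside or at its boundary. Its 3 peaks lay 116363, 128703 and 138382 bp away, all inside Pvt1 (chr15:62037986-62260215) and within 22.0 kb of one another. The middle one (chr15:62118951-62119338) had a fold of 13.96 (11.1 to 17.3) from 80 reads, the highest pileup of the 21. The peaks at its sides had folds of 3.49 (2.22 to 5.25, 21 reads, chr15:62106645-62106912) and 4.94 (3.43 to 6.91, 32 reads, chr15:62128653-62128944). Their intervals overlapped each other and lay below that of the middle peak. Past the upper boundary of Pvt1, a peak at 26900 bp had a fold of 6.82 (4.88 to 9.29, 38 reads) and one at 68253 bp a fold of 4.54 (3.003 to 6.63, 25 reads). No coding gene lay within 150 kb of these, and Myc was the only one within 150 kb of the 3 inside Pvt1. At most 1 coding gene lay that near to 34.1% of all peaks. Of 12697 noncoding RNA genes of the class of Pvt1, 2 held 3 or more summits.

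Input background was high along Pvt1. All 5 of its peaks had backgrounds from 4.72 to 5.68 scaled reads, while the median was 4.17 for the 52 other peaks of chromosome 15 and 3.39 for all 944 peaks. Across the 21 peaks, 9 (42.9%) stood at the lowest background, 3.09, as did 43.2% of all peaks. Of the 9 with a fold of at least 10, 6 stood at that floor, the Arid5b peak at 3.13, the Atf6b peak inside Ppt2 at 3.21 and the Pvt1 peak at 4.80. The part of the input background in these folds was not tested.

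**Figure D4:**
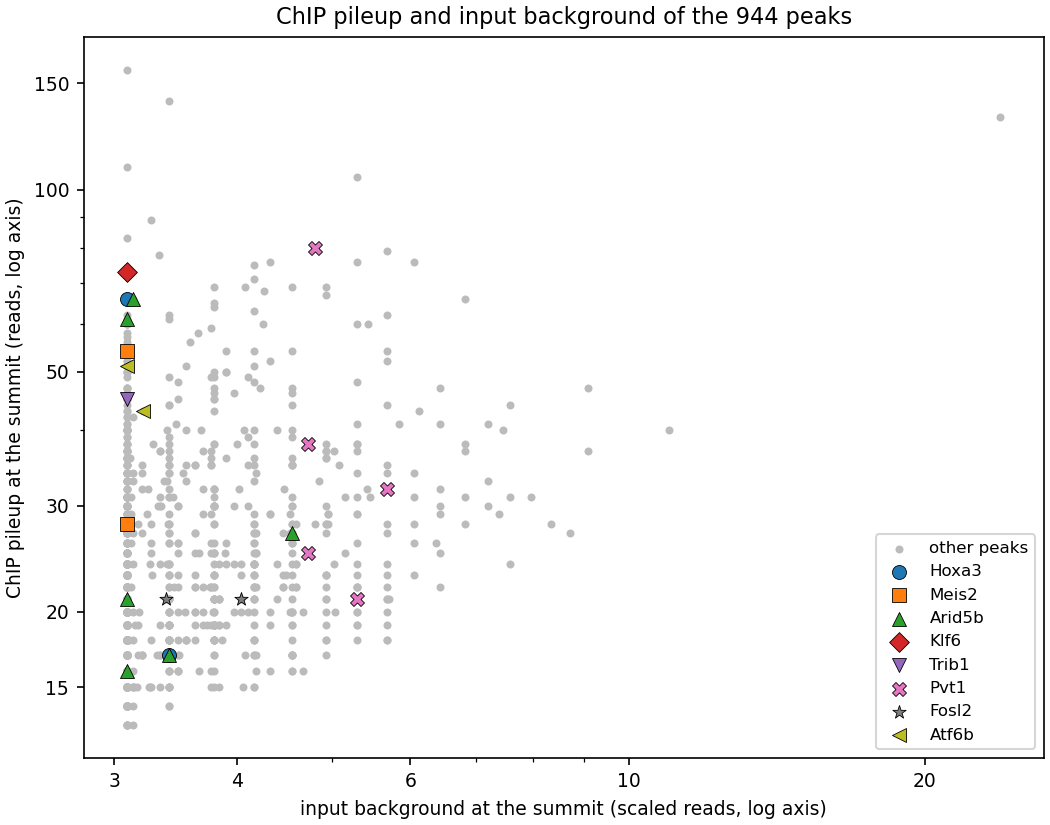
ChIP pileup (y axis, reads) against input background (x axis, scaled reads) at the summit of each of the 944 peaks, both axes logarithmic. Grey points are the 923 other peaks and coloured symbols the 21 peaks by nearest of the 9 genes. The 5 Pvt1 peaks stand to the right, at backgrounds of 4.72 to 5.68, and Klf6 near the top of the floor at 3.09.

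Fosl2, an AP-1 subunit of the Fos family, had peaks of moderate strength on both sides of its start. The gene spans 21.4 kb of the plus strand (chr5:32136472-32157840). One summit lay 1501 bp upstream of the start (chr5:32134829-32135133) with a fold of 5.02 (3.19 to 7.55), and the other 3361 bp downstream of it, inside the gene (chr5:32139579-32139864), with 4.37 (2.78 to 6.57). Each had a pileup of 21 reads, their intervals overlapped widely, and both folds were below the median of all peaks. No other gene was nearer to either.

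Atf6b, a membrane-bound factor that is cut free when unfolded protein collects in the endoplasmic reticulum, had its strongest peak at its end, not at its start. The gene is 7.93 kb long, on the plus strand (chr17:34647146-34655074). The peak (chr17:34655209-34655461) had a fold of 12.7 (9.52 to 16.6, 51 reads) and its summit lay 214 bp past the end of the gene, 8142 bp downstream of the start. Tnxb, a matrix glycoprotein gene, was the nearest other gene at 5165 bp. A second peak (chr17:34624959-34625218) had a fold of 10.5 (7.63 to 13.996, 43 reads) and lay 22076 bp upstream of Atf6b, inside Ppt2, which encodes a lysosomal thioesterase, and 2078 bp downstream of one of its starts. The intervals overlapped. The region is dense in genes: 15 coding genes lay within 150 kb of each of these peaks, against a median of 3 for all peaks, and 6 coding genes were nearer to the second peak than Atf6b.

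Relatives and partners of these regulators were listed by family. Over 10 lists, the 9 genes were left out but their peaks were kept. Of the 167 listed genes, 4 (2.40%) held a summit and 2 (1.20%) had one within 1 kb of a boundary. Among protein-coding genes the shares were 1.63% and 0.569%. Among Hox genes outside the Hoxa cluster, 1 of 28 held a summit, Hoxb6, with a fold of 4.11 (2.59 to 6.24). In the ARID family 2 of 13 did, the Polycomb cofactor gene Jarid2 with 5.62 (3.61 to 8.38) and the chromatin remodeller gene Arid1b with 5.59 (3.83 to 7.91).

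Among tribbles partners, Cebpb, a factor of the C/EBP family, had a summit 80 bp outside the gene, with a fold of 4.17 (2.59 to 6.39). Of 17 immediate early genes, Btg1, an antiproliferative gene, had one 200 bp outside, with 14.9 (11.4 to 19.1). None of the other 11 Hoxa cluster genes, 25 Klf and Sp genes, 13 Myc network genes, 18 AP-1 genes or 18 unfolded protein response genes held a summit or had one within 1 kb. The 150 kb window took in 48 of the 167 (28.7%), against 13.8% of protein-coding genes, among them all 11 Hoxa cluster genes, which share the 2 peaks described above, and 10 Hoxb genes, which also share theirs. Outside the Hox clusters the list shares ran from 11.1% (unfolded protein response, 2 of 18) to 29.4% (immediate early, 5 of 17).

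**Figure D5:**
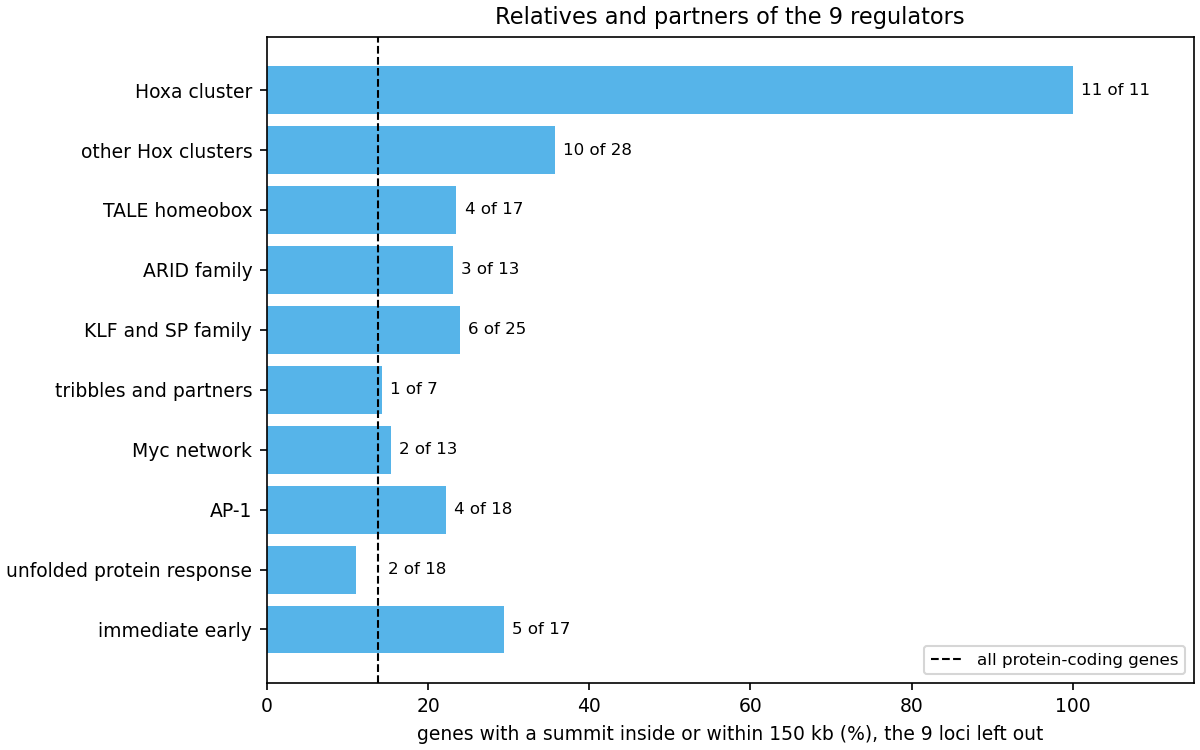
Share of the genes of each list (x axis, percent) with a summit inside or within 150 kb, leaving out the 9 genes but not their peaks, with counts beside the bars. The dashed line is the share of all protein-coding genes (13.8%). Genes of 1 cluster share peaks, which puts all 11 Hoxa genes in the count.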

How the data were processed

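One Foxp2 ChIP library was analysed through its peak list, and the input entered only through its background in that list. MACS2, bcl2fastq and the build mm10 are named per the submitters' processing notes, and the input was the control per the labels. For the aligner, the read filters and their versions: not given in the sources used here. Each fold is the authors' ratio of pileup to background, the −log10 p and −log10 q are those deposited, and the score deposited equals the whole part of 10 times −log10 q (at most 1000), so it was not used.

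Peak numbers run to 983, and 39 of them, including the 8 lowest, were not analysed here, so ranks and counts hold within 944 peaks. Library depth is unknown. Pileup and background were solved from fold, taken as (pileup + 1) / (background + 1), and the Poisson p, with a largest miss of 2.05e-05. The background floor has a tolerance of 0.001. This step was tested on simulated data. Genes and promoter windows came from RefSeq GRCm38.p6, and coordinates are 1-based. Every peak of each member was named, with some of the nearer genes and some of the listed genes that held a peak. Klf18 and Miz1 were not matched, and some listed genes that held a peak are not reported here. The members and lists were chosen with earlier results of these data known. No tests were run. Python 3.11.15, pandas 2.3.3, numpy 2.4.6, scipy 1.17.1 and matplotlib 3.10.9 were used.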

Additional observations from a re-analysis of the deposited data

How the results depend on the processing

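Settings that restrict peaks to the input background floor, the median fold within 500 kb, and the nearest-gene count among peaks with −log10 q of at least 5 were chosen after seeing the data. At the background floor, 9 of the 21 peaks were left, 3 of the 5 genes with a summit inside still had one (Hoxa3, Meis2 and Arid5b), and the median fold was 12.7. With −log10 q of at least 5 the median was 10.5 and 17 peaks were left. Since q and fold rest on the same pileup and background, this limit tends to take out low folds. Medians of all peaks under these 2 limits are not given here, so 12.7 and 10.5 have no like value beside them. Within 50 kb the median was 6.10, and within 500 kb it was 5.09, below that of all peaks (5.13). A window of 50 kb gave 16 peaks and one of 500 kb gave 28, a fold of at least 5 gave 14, and any overlap of the interval gave 21. Boundary peaks were found at 2 genes within 500 bp, without Meis2, and at 4 within 5 kb, adding Fosl2. Counting any overlap put a peak in 6 genes, since the Trib1 peak reaches into its gene. The search for forkhead words in whole peaks and around summits was not run, because peak sequence was read in promoter windows only. No paired analysis was possible because each group has 1 library. Pileups of 16 to 80 reads leave folds near 5 poorly resolved: their intervals span from 3.19 to 7.55 at the upstream Fosl2 peak.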

Other observations

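Beyond the 150 kb windows, more summits lay in the gene-poor stretches around Klf6 and Myc, named after their values were seen. Klf6 was the nearest coding gene of a peak 323 kb past its upper boundary (chr13:6193188-6194068), with a fold of 7.82 (5.39 to 10.99, 31 reads), and of one 436 kb below its lower boundary (chr13:5425534-5425728), with 4.64 (2.85 to 7.19, 18 reads). Both stood at the input background floor. Of these and the peak of 18.1, the last had an interval above the others.

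Myc was the nearest coding gene of 3 more peaks. A pair lay 452 and 453 kb from it on the side away from Pvt1, with folds of 5.14 (3.56 to 7.19) and 4.95 (3.42 to 6.97), and 1 lay 241 kb past Pvt1, with 3.78 (2.59 to 5.35). Their input backgrounds, 5.42, 5.46 and 7.19 scaled reads, compare with 4.80 to 5.68 inside Pvt1. High input background was thus found on both sides of Myc, and its part in these peaks was not tested.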
